A study of Mus musculus with 4 samples.

Results

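The mammary stem and progenitor markers other than Sca-1 are 10 genes, taken by name from the arrays: Cd24a, Cd44, Cd34, Prom1, Aldh1a1, Aldh1a3, Procr, Sox9, Bmi1 and Id4. They are 10 of 12394 genes with a named probe set, and 19 of the 22690 probe sets (an Affymetrix probe set is a group of short probes that together give 1 signal) carry their names. RNA came from female nulliparous C57BL/6 mice in 4 groups: mammary tumors of Sca-1-KO mice, mammary tumors of wild-type mice, mammary glands of Sca-1-KO mice and mammary glands of wild-type mice. The tumors were induced by MP-DMBA, that is 15 mg of MP, a depot progestin, injected under the skin, and then DMBA, a polycyclic aromatic carcinogen, at 1 mg by gavage in 4 weekly doses. The glands were taken at 6 weeks, and their own labels name no carcinogen, although 1 treatment protocol is attached to all samples. The age of the mice with tumors was not found in the labels, so tumor and gland also differ in treatment and perhaps in age. Each group is 1 array of RNA pooled from 5 mice, so the spread between mice was not measured and the differences carry no test.

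Mammary epithelium has an inner layer of luminal cells and an outer layer of basal, contractile cells, and transplantation and lineage tracing place stem and progenitor cells in both layers. Such cells are sorted by surface proteins (CD24, CD44, CD34, prominin-1, the protein C receptor), by aldehyde dehydrogenase activity, or traced by regulators such as Sox9, Bmi1 and Id4. None of these genes is restricted to stem cells, and several are also active in endothelium, stroma or leukocytes. In RNA of whole tissue, fewer cells of a type and less RNA per cell cannot be told apart.

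All 10 genes were above the floor used here, for which the highest of the 4 signals had to reach 168, the pooled median signal. Where a gene had several probe sets, the one with the highest mean stands for it, and the others are given beside it. Differences are on the scale log2(signal + 27.3), the added signal being the pooled lower quartile. This scale understates the fold of dim genes. With 1 array a group, "2-fold" below means a log2 difference of 1 or more, up or down, between 2 arrays. Levels are not compared between genes, since each probe set has its own brightness.

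The arrays differed in ways that touch these comparisons. The ratio of 3' to 5' signal of beta-actin, a sign of RNA integrity, was 1.29 in the knockout tumor, 1.23 in the wild-type tumor, 1.61 in the knockout gland and 2.35 in the wild-type gland. Krt18, a luminal keratin, had signals of 10099 in the knockout tumor, 9061 in the wild-type tumor, 5641 in the knockout gland and 7159 in the wild-type gland. Adipoq, made by fat cells, had signals of 451 in the knockout tumor, 349.7 in the wild-type tumor, 7674 in the knockout gland and 8382 in the wild-type gland. The summed signal of 5 skeletal muscle markers was 1404 and 633 in the knockout and wild-type tumors, against 29214 and 30546 in the knockout and wild-type glands. No muscle marker was at 0 on any array, but 3 of the 5 in the knockout tumor and 4 in the wild-type tumor were below the floor. The luminal markers Esr1 and Pgr, hormone receptor genes, stayed below the floor on all 4 arrays, at 57.8 or less. In the annotation used, 0 listed probe sets carried the symbol, a synonym, the gene identifier or a RefSeq transcript of the Sca-1 gene Ly6a, alone or among several genes. The 1606 probe sets it does not list have no name here, so the knockout was not checked.

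Tumor and gland differed far more for these markers than the genotypes did. Cd44, Sox9, Id4 and Aldh1a3 were at least 2-fold higher, and Cd34 and Prom1 at least 2-fold lower, in the tumors of both genotypes than in the glands. Aldh1a1 and Procr were lower in the tumors of both genotypes, past 2-fold in the knockout and within it in wild type, a difference that was not tested. Cd24a and Bmi1 stayed within 2-fold by their brightest probe sets. Of the 10 markers, 4 were higher and 4 lower by 2-fold in the knockout tumor against the knockout gland, where 30.2% of the 8283 genes above the floor passed 2-fold in either direction (12.4% higher and 17.9% lower; scaled to equal medians, 1693 genes were higher and 1027 lower in place of 1023 and 1479). In wild type 4 were higher and 2 lower, where 29.4% of all genes passed (12.9% higher and 16.6% lower). All 10 markers had the same sign in both genotypes, as 84.9% of all genes did. The 6 markers past 2-fold with the same sign in both genotypes compare with 22.6% of all genes. The median size of the log2 difference was 1.80 in the knockout and 1.51 in wild type over the markers, against 0.61 and 0.59 over all genes. The markers were chosen with earlier results of these data known. Their shares and sizes beside those of all genes are therefore a description and not a test.

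**Figure D1:**
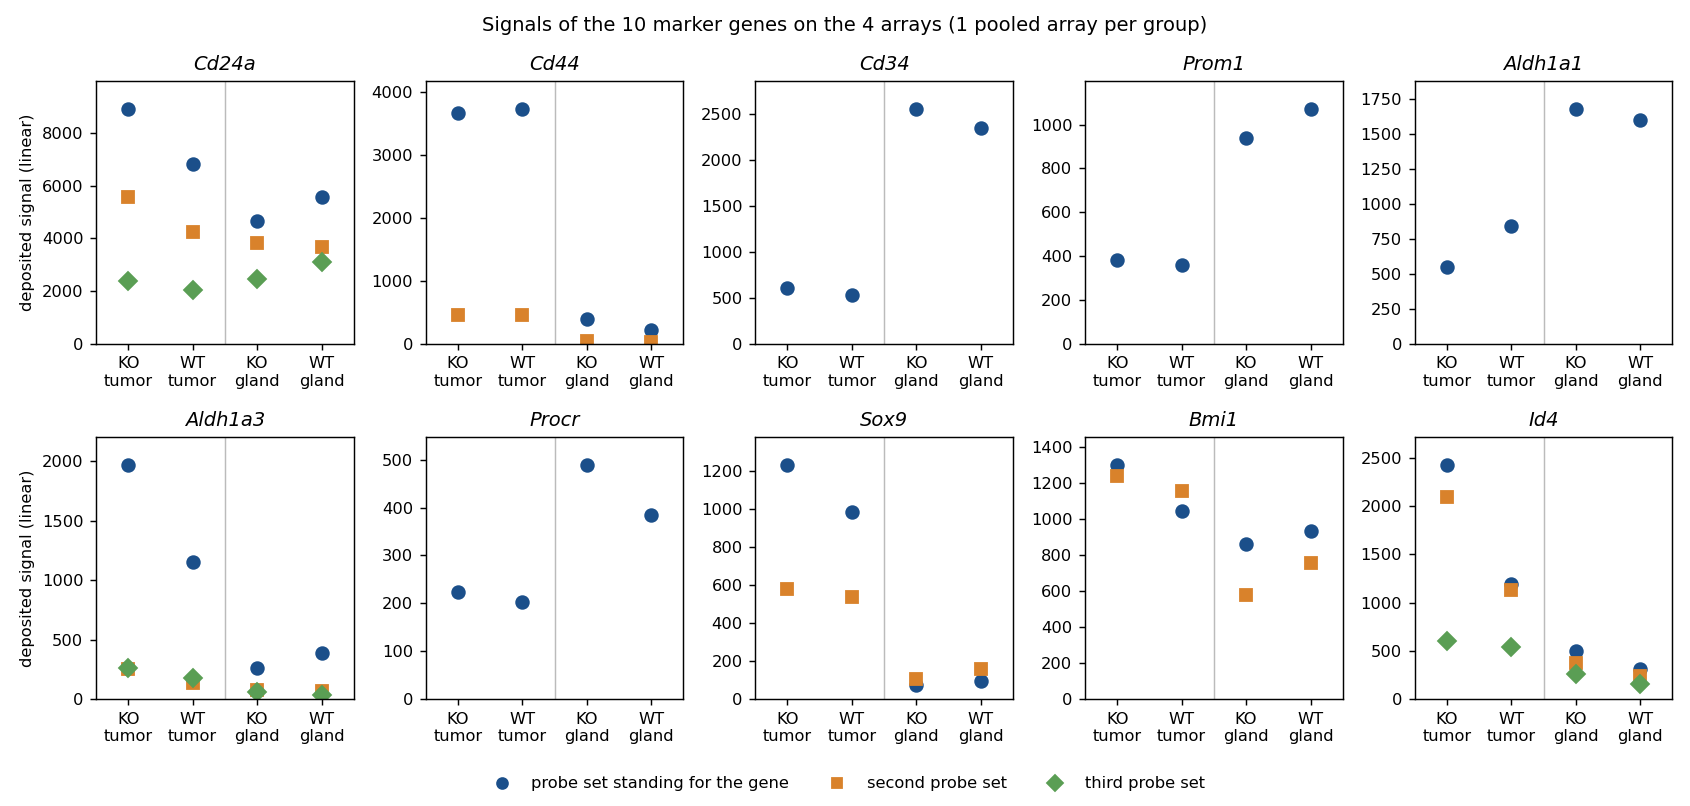
Deposited linear signal (vertical axis, from 0, its own range in each panel) of every probe set of the 10 marker genes on the 4 arrays, with the tumors left and the glands right of the grey line; each point is 1 array of 5 pooled mice. Cd44 and Sox9 lie far higher on both tumor arrays and Cd34 far lower. Cd24a and Bmi1 lie highest in the knockout tumor by their brightest probe sets, at 8902 and 1304.

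CD44 is the cell surface receptor for hyaluronan, the long sugar polymer of connective tissue. The brightest Cd44 probe set had signals of 3671 in the knockout tumor and 3733 in the wild-type tumor, against 393 in the knockout gland and 217 in the wild-type gland. Both tumors lay well above both glands. The tumor was 8.81-fold higher in the knockout (log2 difference 3.14) and 15.4-fold higher in wild type (3.94), and of the 8283 genes 56 and 33 had a larger increase. A second probe set gave 460 and 447 in the knockout and wild-type tumors, against 37.0 and 17.9 in the glands of those genotypes. It showed the same direction with differences of 2.92 and 3.39. The smaller difference in the knockout follows the gland signals, since the tumors were nearly equal and the knockout gland was the higher of the glands.

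Of 10 genes of the CD44 and hyaluronan list above the floor, 4 were higher and 2 lower in the knockout tumor than in the knockout gland, and 4 were higher and 1 lower in wild type. The hyaluronan synthase Has2 had signals of 484 and 314 in the knockout and wild-type tumors, against 54.0 and 64.3 in the glands. The hyaluronan-binding proteoglycan versican, Vcan, had 1704 and 2534 in the knockout and wild-type tumors, against 403 and 249.6 in the glands. Both thus lay higher in the tumors, as Cd44 did. Lyve1, a hyaluronan receptor of lymphatic endothelium, went the other way, with 127 and 51.3 in the knockout and wild-type tumors, against 2074 and 1211 in the glands. The list median was -0.05 in the knockout and -0.12 in wild type, beside -0.04 and -0.03 over all genes.

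SOX9 is a transcription factor of ductal and progenitor cells in many epithelia. Sox9 had signals of 1232 in the knockout tumor and 985 in the wild-type tumor, against 73.8 in the knockout gland and 95.4 in the wild-type gland. Both gland signals were below the floor, so the fold depends on the offset. The log2 difference was 3.64 in the knockout, with 24 of 8283 genes higher, and 3.04 in wild type. It was 4.04 and 3.35 with an offset of 1, and 2.53 and 2.13 with the median of all values as the offset. A second probe set, at 577 and 536 in the knockout and wild-type tumors against 104 and 159 in the glands, had smaller differences of 2.20 and 1.59. Both Sox9 probe sets were therefore past 2-fold in both genotypes, and the size differed between them.

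The other Sox genes did not share this pattern as a list. Of 6 members above the floor, 1 was past 2-fold upward and 4 downward in the knockout tumor against the gland, and in wild type 2 and 2 were. Sox17 and Sox18, factors of vascular endothelium, were among the lower ones in the knockout, at 99.6 and 197 in the knockout tumor against 755 and 631 in the knockout gland. In wild type Sox17 had 89.8 in the tumor and 642 in the gland, and Sox18 had 283 and 442. Sox6 had 42.9 and 38.6 in the knockout and wild-type tumors, against 217 and 248 in the glands.

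ID4 is a helix-loop-helix protein that binds other helix-loop-helix factors and keeps them off DNA; in the mouse mammary gland it is known from basal cells. The brightest Id4 probe set had signals of 2431 in the knockout tumor and 1192 in the wild-type tumor, against 502 in the knockout gland and 309 in the wild-type gland. The knockout array was the higher one in each tissue. The tumor was 4.65-fold higher in the knockout (2.22) and 3.63-fold higher in wild type (1.86). The other probe sets gave differences of 2.39 and 1.15 in the knockout and 2.10 and 1.61 in wild type, all past 2-fold. The rest of the Id family did not move as one. Id2 had 3450 and 3713 in the knockout and wild-type tumors, against 804 and 832 in the glands. Id1 had 565 and 378 in the knockout and wild-type tumors, against 995 and 875 in the glands, and Id3 lay within 2-fold.

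Basal epithelial markers lay higher on the same tumor arrays. Of 8 markers, 5 were higher and 1 lower by 2-fold in the knockout tumor against the gland, and 6 were higher and 1 lower in wild type. Their summed signal was 30114 and 35436 in the knockout and wild-type tumors, against 10539 and 10397 in the glands, and none was at 0. On each tumor array and on the wild-type gland array 1 of the 8 was below the floor. Krt5, Krt14 and Trp63 stand both here and in the list of other stem and progenitor genes. Oxtr, the oxytocin receptor gene, was the lower one, with 46.0 and 37.9 in the knockout and wild-type tumors against 197 and 163 in the glands. The part of basal cell content in the Id4 and Sox9 values was not tested.

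Promoter windows from RefSeq (GRCm38.p6) were matched for 7 of the 10 genes, in 9 windows. Cd24a, Aldh1a3 and Sox9 had no entry. The 250 bases before the start are printed for a pair of markers higher in both tumors, Id4 and Cd44, and a pair lower in both tumors, Cd34 and Aldh1a1, so that their base composition can be set side by side. They are read 5′ to 3′ along the gene. The capitals mark the GC box GGGCGG and the CCAAT box CCAAT, each on either strand.
Id4, chr13:48260866-48261115, plus strand: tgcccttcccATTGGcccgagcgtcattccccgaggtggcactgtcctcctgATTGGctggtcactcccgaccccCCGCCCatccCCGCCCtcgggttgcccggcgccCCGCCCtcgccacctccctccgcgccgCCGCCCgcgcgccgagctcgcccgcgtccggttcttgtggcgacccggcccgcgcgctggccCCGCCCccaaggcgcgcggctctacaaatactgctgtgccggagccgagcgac
Cd44, chr2:102901666-102901915, minus strand: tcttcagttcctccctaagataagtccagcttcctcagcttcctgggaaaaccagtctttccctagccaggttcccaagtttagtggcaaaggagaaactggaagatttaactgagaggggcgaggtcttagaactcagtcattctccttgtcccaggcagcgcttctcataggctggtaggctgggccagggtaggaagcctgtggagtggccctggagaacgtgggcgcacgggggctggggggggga
Cd34, chr1:194938571-194938820, plus strand: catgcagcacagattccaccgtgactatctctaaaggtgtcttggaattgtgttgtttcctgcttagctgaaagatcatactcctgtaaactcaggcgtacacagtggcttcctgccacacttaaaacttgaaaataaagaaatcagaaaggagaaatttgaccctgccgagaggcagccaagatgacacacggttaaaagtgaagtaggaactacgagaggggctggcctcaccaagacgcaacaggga
Aldh1a1, chr19:20601718-20601967, plus strand: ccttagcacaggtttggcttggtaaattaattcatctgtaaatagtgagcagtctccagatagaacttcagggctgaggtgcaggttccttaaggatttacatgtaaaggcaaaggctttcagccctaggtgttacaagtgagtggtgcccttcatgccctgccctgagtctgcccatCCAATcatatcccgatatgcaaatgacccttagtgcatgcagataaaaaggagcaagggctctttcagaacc
The Id4 window was 75.6% G or C and held 35 CpG dinucleotides, with an observed to expected CpG ratio of 1.05, 5 GC boxes and 2 CCAAT boxes. The Cd44 window, of a gene that was also higher in the tumors, was 56.4% G or C with a CpG ratio of 0.26 and held neither box. The Cd34 window was 46.4% G or C with a ratio of 0.45 and neither box, and the Aldh1a1 window was also 46.4% G or C, with a ratio of 0.07 and 1 CCAAT box. Over all 32851 windows of this length the median was 52.4% G or C and a ratio of 0.37, with a GC box in 32.7%, a CCAAT box in 33.8% and the TATA box TATAAA on either strand in 12.4%. No TATAAA was found in the 9 windows. The AP-1 letters TGANTCA were in 4 of them, those of Procr and both of Prom1 and the other window of Aldh1a1, against 6.75% of all windows. Windows of the same gene are not independent, and this share was not tested. The tumor-high pair differed in G and C content, and the tumor-low pair, in the windows printed, shared it but differed in CpG ratio. The other Aldh1a1 window was 42.8% G or C with a ratio of 0.26. The windows of Prom1, also lower in both tumors, were 50.8% and 59.2% G or C. A match of letters is a description, not a site in use.

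**Figure D2:**
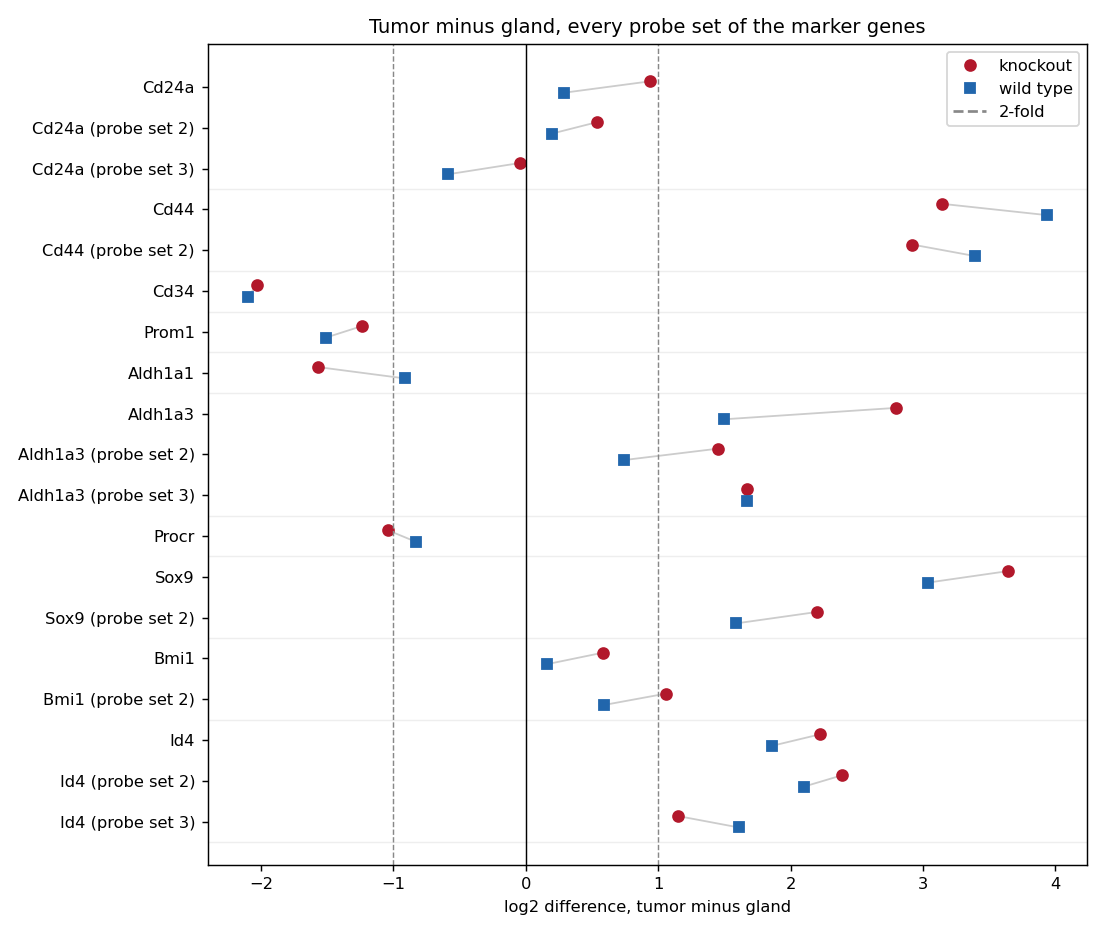
Log2 difference between tumor and gland (horizontal axis) for each of the 19 probe sets, with the knockout as circles and wild type as squares; dashed lines mark 2-fold and each point is a difference between 2 arrays. Every probe set of Cd44, Sox9 and Id4 lies past 2-fold to the right in both genotypes, Cd34 and Prom1 lie past it to the left, and the third probe set of Cd24a lies left of 0 in both.

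ALDH1A1 and ALDH1A3 both oxidise retinaldehyde to retinoic acid, and the enzyme assay used to sort progenitors reads aldehyde dehydrogenase activity without telling the genes apart. They went opposite ways between tumor and gland. Aldh1a3 had signals of 1969 in the knockout tumor and 1151 in the wild-type tumor, against 259.9 in the knockout gland and 388 in the wild-type gland. The tumor was 6.95-fold higher in the knockout (2.80, with 93 of 8283 genes higher) and 2.83-fold higher in wild type (1.50). The other probe sets, at 255 or 259.6 in the knockout tumor and 136 or 176 in the wild-type tumor against 75.5 or 62.7 in the knockout gland and 70.5 or 36.5 in the wild-type gland, gave 1.45 and 1.67 in the knockout and 0.74 and 1.67 in wild type. One probe set in wild type thus stayed within 2-fold. Every gland signal of these other probe sets was below the floor, as was the 136 in the wild-type tumor.

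Aldh1a1 had signals of 547 in the knockout tumor and 841 in the wild-type tumor, against 1679 in the knockout gland and 1600.4 in the wild-type gland. It was 2.97-fold lower in the knockout tumor (-1.57) and 1.87-fold lower in the wild-type tumor (-0.91). Whether this differed between genotypes could not be tested. Aldh1a7, a close mouse paralog of Aldh1a1, was lower by more, with 83.8 and 47.3 in the knockout and wild-type tumors against 2207 and 2873 in the glands. How far the probes of these close copies share transcripts was not tested.

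Among the other aldehyde dehydrogenases, 6 of 12 genes above the floor were lower and 2 higher by 2-fold in the knockout tumor against the gland, and 5 were lower and 2 higher in wild type. The list median was -1.06 in the knockout and -0.84 in wild type, beside -0.04 and -0.03 over all genes. Aldh1l1, an enzyme of folate metabolism, had 196 and 114 in the knockout and wild-type tumors, against 1645 and 1839 in the glands. Aldh6a1, a mitochondrial enzyme of valine breakdown, had 478 and 484 in the knockout and wild-type tumors, against 3513 and 4139 in the glands. Fat cell markers were lower by 2-fold on the same tumor arrays in 4 of 4 genes and in both genotypes. Their summed signal was 2657 and 3771 in the knockout and wild-type tumors, against 27638 and 28974 in the glands, with none at 0. In the knockout tumor 1 and in the wild-type tumor 2 of the 4 were below the floor. The part of fat cells in the Aldh values was not tested.

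Other genes of the retinoid pathway went both ways, with 3 higher and 3 lower of 10 above the floor in the knockout and 3 higher and 4 lower in wild type. Crabp2, which carries retinoic acid to its receptors, had signals of 989.5 and 691 in the knockout and wild-type tumors, against 67.7 and 71.8 in the glands. Rbp4, the retinol carrier of blood that fat and liver secrete, had 50.3 and 44.4 in the knockout and wild-type tumors, against 3846 and 4518 in the glands. Adh1, an alcohol dehydrogenase that oxidises retinol, had 238 and 534 in the knockout and wild-type tumors, against 2442 and 3267 in the glands. Crabp2 was thus high where Aldh1a3 was high, and Rbp4 and Adh1 where Aldh1a1 was high.

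**Figure D3:**
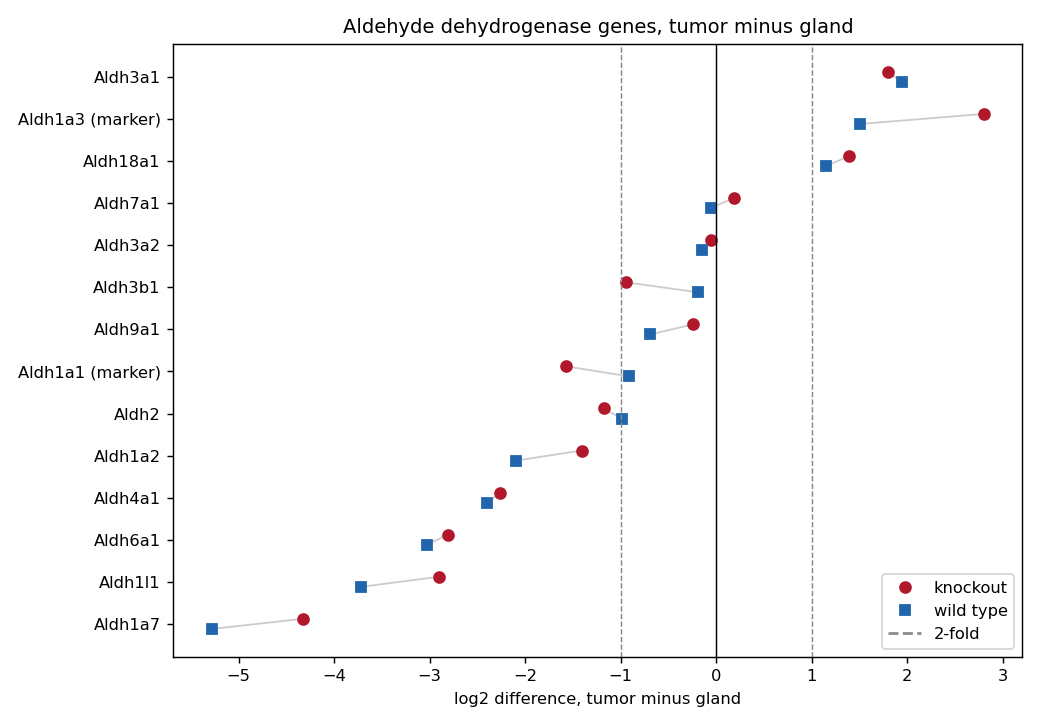
Log2 difference between tumor and gland (horizontal axis) for Aldh1a1, Aldh1a3 and the 12 other aldehyde dehydrogenase genes above the floor, by their brightest probe set, with the knockout as circles and wild type as squares and dashed lines at 2-fold. Aldh1a3 lies past 2-fold on the right in both genotypes with Aldh3a1 and Aldh18a1, and Aldh1a1 lies left of 0 at -1.57 in the knockout and -0.91 in wild type.

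CD34 is a sialomucin of endothelium, fibroblasts, fat progenitors and blood progenitors, and of skin stem cells in the mouse. Cd34 had signals of 604 in the knockout tumor and 527 in the wild-type tumor, against 2550.2 in the knockout gland and 2349 in the wild-type gland. The tumor was 4.08-fold lower in the knockout (-2.03) and 4.28-fold lower in wild type (-2.10). The glands lay above the tumors by a similar margin in both genotypes. Endothelial markers were lower too, by 2-fold in 8 of 10 in the knockout and 5 of 10 in wild type, with none higher. Their summed signal was 1979 and 2342 in the knockout and wild-type tumors, against 6366 and 5481 in the glands, with none at 0. In the knockout tumor 5 and in the wild-type tumor 4 of the 10 were below the floor. Fibroblast markers were lower by 2-fold in 5 of 8 in the knockout and 4 of 8 in wild type, their summed signal being 15680 and 25161 in the knockout and wild-type tumors, against 41736 and 35160 in the glands, also with none at 0. The part of either cell type in the Cd34 values was not tested.

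PROCR is the endothelial receptor of protein C, an anticoagulant protease, and marks a basal stem cell population in the mouse gland. The 1 probe set of Procr, of a kind that may be shared between transcripts, had signals of 224 in the knockout tumor and 203 in the wild-type tumor, against 489 in the knockout gland and 384 in the wild-type gland. The tumor was 2.06-fold lower in the knockout (-1.04) and 1.78-fold lower in wild type (-0.83). The knockout value sat at the edge of 2-fold and came inside it under 4 alternatives, at between -0.88 and -0.71. Of 5 genes of the protein C pathway above the floor, 2 were lower in each genotype. Thbd, thrombomodulin, had 113 and 98.4 in the knockout and wild-type tumors, against 1042 and 1077 in the glands. Tfpi, the inhibitor of tissue factor, had 83.4 and 77.6 in the knockout and wild-type tumors, against 373 and 325 in the glands. Both are made by endothelium, whose markers lay lower on the same arrays. The part of endothelial content in the Procr, Thbd and Tfpi values was not tested.

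PROM1, prominin-1 or CD133, is a membrane protein of apical protrusions that in the mouse gland marks luminal cells. Prom1 had signals of 382 in the knockout tumor and 357 in the wild-type tumor, against 940.4 in the knockout gland and 1071 in the wild-type gland. The tumor was 2.36-fold lower in the knockout (-1.24) and 2.86-fold lower in wild type (-1.51). Scaled to equal medians, the arrays gave -0.91 in the knockout. Luminal markers were counted on the same arrays. Of 9 above the floor, 5 were higher and none was lower by 2-fold in the knockout tumor, and 2 were higher and none lower in wild type. Their summed signal over 11 measured genes was 49116 and 43974 in the knockout and wild-type tumors, against 23317 and 28841 in the glands.

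CD24A is a small, heavily glycosylated protein held in the membrane by a lipid anchor and is the usual marker that separates epithelial from stromal cells in sorts of the mouse gland. Cd24a had signals of 8902 in the knockout tumor and 6809 in the wild-type tumor, against 4640.3 in the knockout gland and 5581 in the wild-type gland. The tumor was 1.91-fold higher in the knockout (0.94) and 1.22-fold higher in wild type (0.29), both within 2-fold. The probe sets disagreed in sign. The second gave 0.54 and 0.20 in the knockout and wild type, while the third, of a kind prone to cross-hybridisation, gave -0.04 and -0.59. The direction of Cd24a between tumor and gland is therefore unsettled. Scaled to equal medians, the arrays gave 1.26 in the knockout for the brightest probe set.

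BMI1 is a subunit of polycomb repressive complex 1, known for keeping the cell cycle inhibitor locus Cdkn2a silent in stem cells. Bmi1 had signals of 1304 in the knockout tumor and 1045 in the wild-type tumor, against 865 in the knockout gland and 935.5 in the wild-type gland. The differences were 0.58 in the knockout and 0.16 in wild type, and a second probe set gave 1.06 and 0.59. Bmi1 thus varied least of the 10 markers across the 4 arrays, by a range of 0.58 on the log2 scale for its brightest probe set. Of 12 genes of the polycomb list above the floor, 2 were higher and 2 lower by 2-fold in each genotype. Cbx6 had 2793 and 2442 in the knockout and wild-type tumors, against 1120 and 1043 in the glands, while Ezh1, a histone methyltransferase, had 366 and 395 in the tumors, against 935 and 974 in the glands. The other higher gene of the list was Cdkn2a itself, which is a target of the complex and not a subunit. It had 716 and 1043 in the knockout and wild-type tumors, against 8.3 and 19.8 in the glands, both gland signals being below the floor.

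Other genes used to mark mammary stem and progenitor cells were higher in the tumors more often than lower. Of 28 above the floor, out of 31 measured, 13 were higher and 6 lower by 2-fold in the knockout, and 10 were higher and 5 lower in wild type. Over all genes above the floor, 12.4% were higher and 17.9% lower in the knockout, and 12.9% and 16.6% in wild type. The list median was 0.79 in the knockout and 0.62 in wild type, beside -0.04 and -0.03 over all genes. The basal keratin Krt5 had signals of 5245 and 4367 in the knockout and wild-type tumors, against 501 and 458 in the glands. Its partner Krt14 had 5448 and 4518 in the knockout and wild-type tumors, against 562 and 624 in the glands. Krt6a, a keratin of hyperproliferative epithelium, had 942 and 1387 in the knockout and wild-type tumors, against 289 and 63.8 in the glands. Among the lower genes, named after their values were seen, were Axin2 (-1.91 in the knockout and -1.80 in wild type) and Thy1 (-1.64 and -1.61). Krt5, Krt14 and Trp63 also stand in the basal list, Epcam and Elf5 in the luminal list and Krt6a in the keratinising list. The part of epithelial cell content in these values was not tested. This list, too, was chosen with earlier results of these data known.

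**Figure D4:**
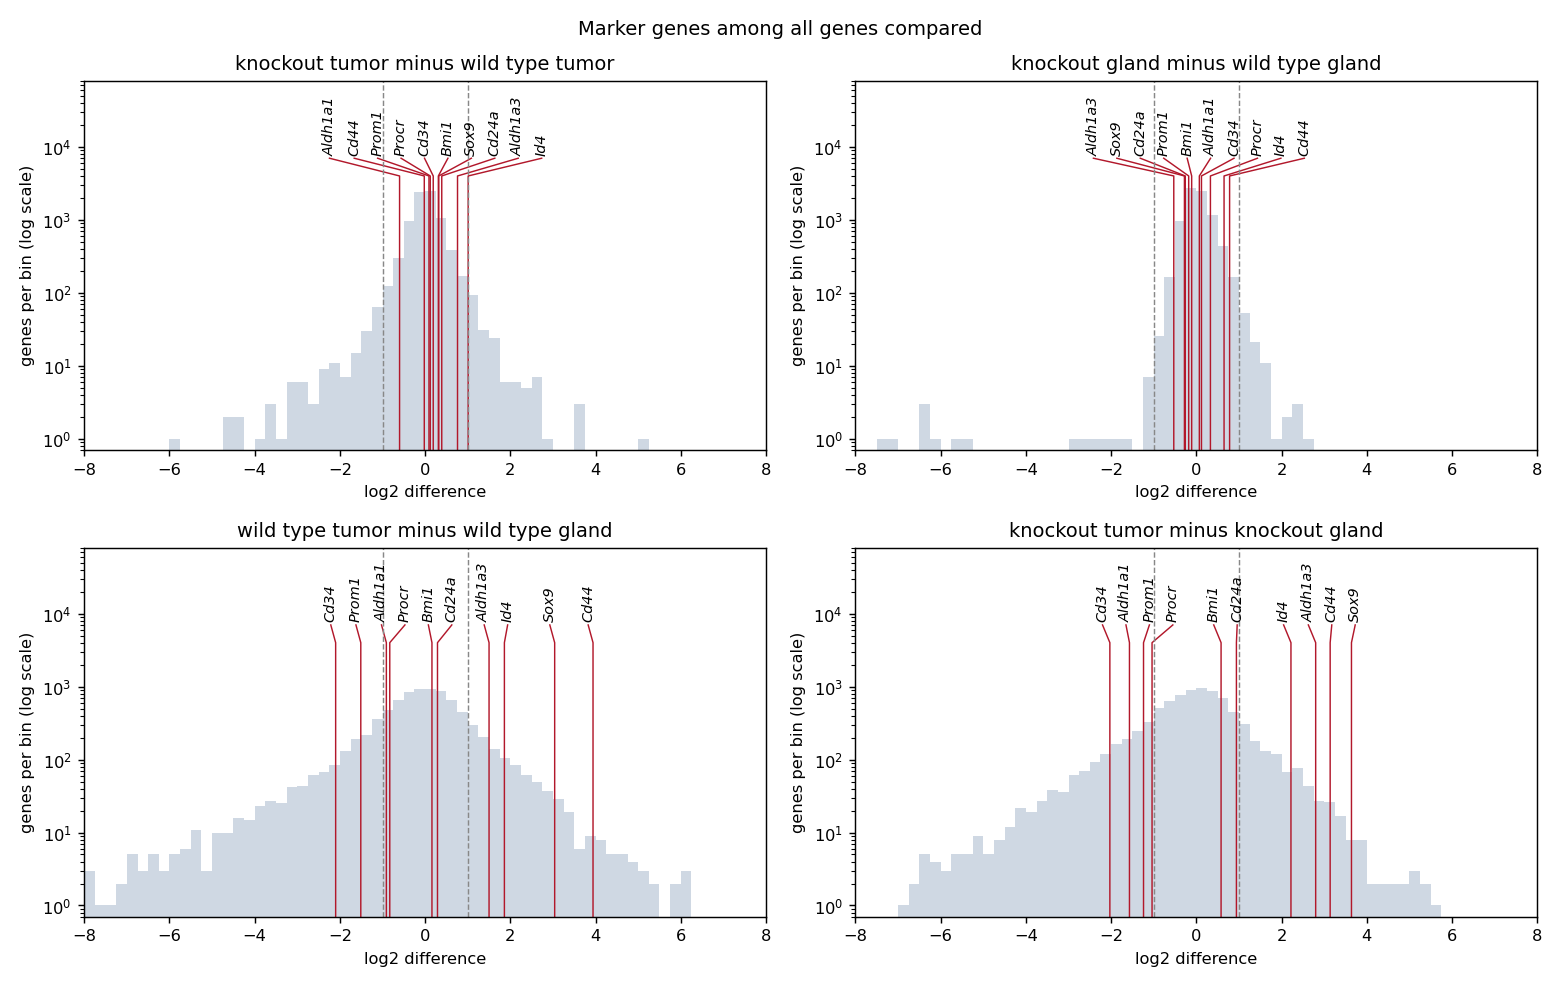
Number of genes (vertical axis, log scale) by log2 difference (horizontal axis, bins of 0.25, values beyond 8 placed in the end bin) for the 8283 genes above the floor in each of the 4 comparisons of 2 arrays, with red lines at the 10 markers and dashed lines at 2-fold. In both genotype comparisons every marker but Id4 in the tumor, at 1.01, lies within 2-fold. Some lie toward the edges of the bulk: in the glands 1.9% of genes lie below Aldh1a3 and 97.3% below Cd44. In the tumors 5.1% lie below Aldh1a1 and 97.9% below Id4. In both tissue comparisons the markers spread from about the lower side of the bulk (Cd34) to the far upper side (Cd44, Sox9).

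Between genotypes the markers differed by less than between tissues. In the tumors 1 of 10, Id4, was at least 2-fold higher in the knockout and none was lower, where 4.07% of all genes passed 2-fold (2.12% higher and 1.94% lower). In the glands none of the 10 passed, where 1.36% of all genes did (1.11% higher and 0.254% lower; scaled to equal medians, 44 genes were higher and 39 lower in place of 92 and 21). The sign differed between tumor and gland for 7 of the 10, against 49.0% of all genes. The median log2 difference, knockout minus wild type, was 0.25 in the tumors and -0.02 in the glands over the markers, beside 0.01 and 0.01 over all genes. The median size was 0.31 in the tumors and 0.27 in the glands over the markers, beside 0.20 and 0.18 over all genes, and 8 of 10 markers were positive in the tumors and 5 of 10 in the glands. The tumor arrays also differed in keratinising markers, of which 6 of 8 above the floor were lower by 2-fold in the knockout tumor (median -3.29). Their summed signal over 9 measured genes was 1503 in the knockout tumor and 7626 in the wild-type tumor. None was at 0, but 7 of the 9 in the knockout tumor and 2 in the wild-type tumor were below the floor. Their part in the marker values was not tested. Id4 sat at the edge of 2-fold.

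For Id4, the brightest probe set, at 2431 in the knockout tumor and 1192 in the wild-type tumor, was 2.02-fold higher in the knockout (1.01), with 173 of 8283 genes higher. The second, at 2095 in the knockout tumor and 1136 in the wild-type tumor, gave 0.87. The third, at 605 in the knockout tumor and 541 in the wild-type tumor, gave 0.15. The probe sets thus shared a sign in the tumor and not a size. In the glands all 3 lay close together, at 0.65, 0.58 and 0.61, with the knockout higher. Dividing cell markers were higher on the knockout tumor array as well, by 2-fold in 3 of 6, with a summed signal of 4807 in the knockout tumor and 2172 in the wild-type tumor and of 1045 in the knockout gland and 506 in the wild-type gland. Basal markers went both ways between the tumors, 4 positive and 4 negative. The contractile genes Myh11 and Cnn1 were lower by 2-fold in the knockout tumor (-1.38 and -1.19), while Krt5 and Krt14 differed by 0.26 and 0.27. The part of either in the Id4 values was not tested.

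Aldh1a3 was 1.69-fold higher in the knockout tumor (0.76), and its other probe sets gave 0.79 and 0.49. In the glands its probe sets disagreed, at -0.53, 0.07 and 0.50, so no direction is given there. The probe sets at 0.07 and 0.50 were below the floor on both gland arrays, and the one at -0.53 was above it. Aldh1a1 was 1.51-fold lower in the knockout tumor (-0.60), with 420 of 8283 genes lower, and differed by 0.07 in the glands. The retinoic acid enzymes thus lay on opposite sides of 0 between the tumors, each within 2-fold. Of the other 12 aldehyde dehydrogenases none passed 2-fold in either tissue. Of the 10 retinoid genes above the floor, Crabp1 and Adh1 were lower by 2-fold in the knockout tumor (-2.41 and -1.08) and none passed in the glands. Over all genes above the floor, 4.07% passed between the tumors and 1.36% between the glands.

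Cd44 was equal between the tumors (-0.02 and, by the second probe set, 0.04) and 1.72-fold higher in the knockout gland (0.78), with 225 of 8283 genes higher. The second probe set gave 0.51 in the glands, where both its signals were below the floor. Leukocytes also carry CD44, and B cell markers were higher by 2-fold in 6 of 6 in the knockout gland, with a summed signal of 4236 in the knockout gland and 1528 in the wild-type gland, and T cell markers in 1 of 4, with 1915 in the knockout gland and 1119 in the wild-type gland. Myeloid markers were positive in 6 of 6 above the floor and higher by 2-fold in 2 (median 0.57), with a summed signal over 7 genes of 11086 in the knockout gland and 8093 in the wild-type gland. None of those markers was at 0. In the wild-type gland 2 of 6 B cell, 3 of 5 T cell and 3 of 7 myeloid markers were below the floor. In the knockout gland 1 T cell and 1 myeloid marker were. The part of these cells in the Cd44 value was not tested.

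For Cd24a, Sox9 and Bmi1 the brightest probe set was slightly higher in the knockout tumor, by 0.39, 0.32 and 0.31, and slightly lower in the knockout gland, by -0.26, -0.28 and -0.11. All other probe sets of these genes were also positive between the tumors, and 3 of the 4 were negative between the glands, the exception being the second of Cd24a at 0.05. Prom1 differed by 0.09 in the tumors and -0.18 in the glands. Cd34 differed by 0.19 and 0.12, and Procr by 0.12 and 0.33. With no replicates, these differences cannot be told from the spread between pools.

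**Figure D5:**
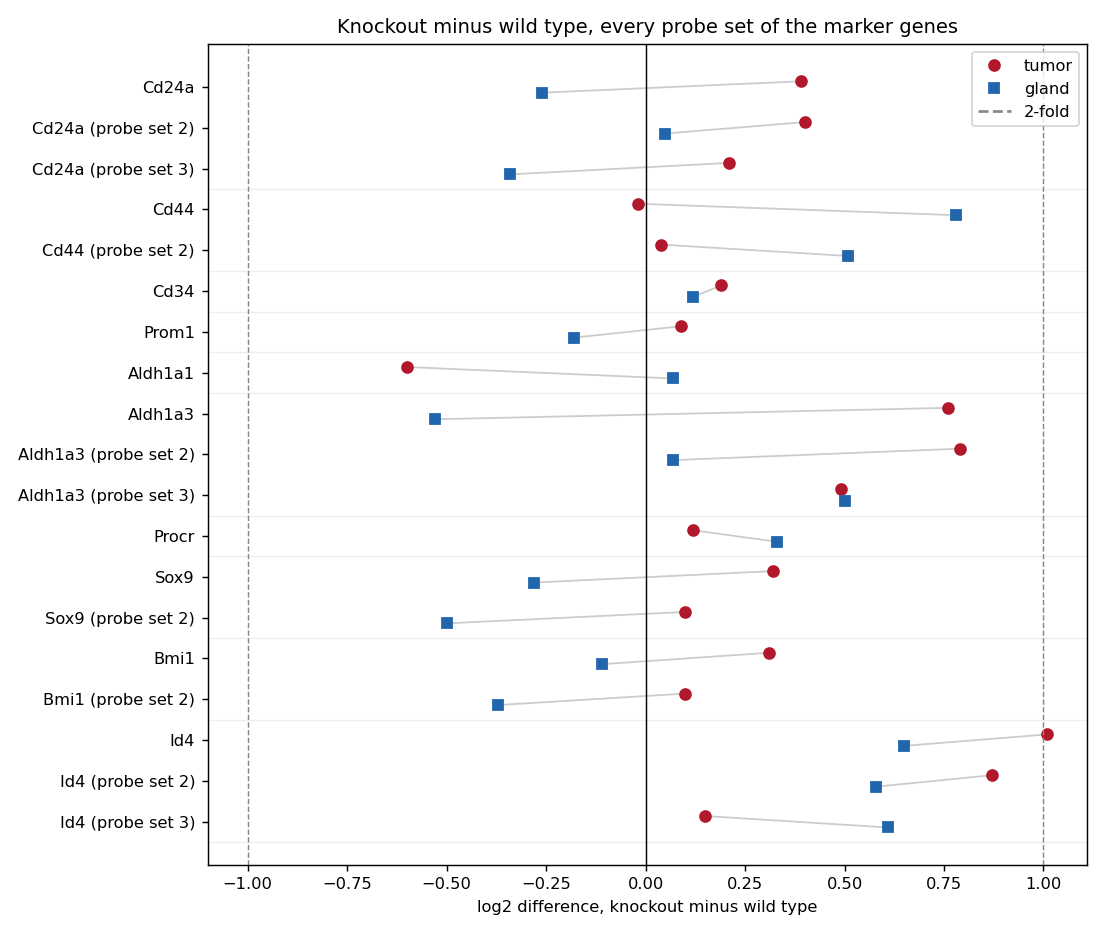
Log2 difference between knockout and wild type (horizontal axis) for each of the 19 probe sets, with tumors as circles and glands as squares; dashed lines mark 2-fold and each point is a difference between 2 arrays. A single point, the brightest Id4 probe set in the tumor at 1.01, reaches 2-fold, and the gland values of Aldh1a3 spread from -0.53 to 0.50.

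Among the 28 other stem and progenitor genes, 1 was higher by 2-fold in the knockout tumor and 2 in the knockout gland, with none lower in either tissue. The 1 in the tumor was Lgr5, a receptor of R-spondins and a stem cell marker of several epithelia. It had signals of 438 in the knockout tumor and 97.6 in the wild-type tumor, against 92.6 in the knockout gland and 84.8 in the wild-type gland. Lgr5 reached the floor in the knockout tumor only, so its fold depends on the offset. In the gland Krt6a had 289 in the knockout and 63.8 in wild type. Bcl11b, a zinc finger factor, had 62.0 in the knockout gland and 2.7 in the wild-type gland, both below the floor. It was compared because its signal of 213 in the knockout tumor reached the floor. Both Lgr5 and Bcl11b were named after their values were seen. The protein C, polycomb, Sox and Id lists had no gene above the floor past 2-fold between genotypes in either tissue. Over all genes above the floor, 4.07% passed 2-fold between the tumors and 1.36% between the glands, so few would pass in any short list. In the CD44 and hyaluronan list Hmmr, a hyaluronan receptor also tied to mitosis, was higher by 1.02 in the knockout tumor.

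The profile of each marker over the 4 arrays was set beside those of the genes above the floor, leaving out clone, predicted and locus names. The measure was the root mean square distance of log2 values centred on their mean. Nearest to Cd44 were Sfrp1 (distance 0.132) and Cda (0.149), and nearest to Sox9 were Atp6v1b1 (0.103) and Cck (0.109). Id4 lay nearest to Cxcl10 (0.056) and Cdca5 (0.061), and Aldh1a3 to Slc5a8 (0.037) and Epha1 (0.099). The markers lower in the tumors had nearer neighbours. Cd34 lay nearest to Fancg (0.025) and Samd4b (0.044), Prom1 to Pdha1 (0.024) and Mecr (0.029), Aldh1a1 to Plcl2 (0.027) and Septin11 (0.034), and Procr to Btg2 (0.019) and Arsa (0.030). Cd24a lay nearest to Txnl1 (0.019) and Hspe1 (0.031), and Bmi1 to Gpr89 (0.018) and F11r (0.019). Among the markers themselves the closest pair was Cd24a and Bmi1, at 0.137, while Cd44 and Sox9, each the other's nearest marker, were 0.406 apart. Over 4 arrays such a distance is a description of these pools.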

How the data were processed

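Each group of 5 pooled mice was measured on 1 Affymetrix array. The authors deposited 22690 probe set signals per array as linear intensity; which software made them was not found in the labels. After trimming 2% at each end, every array averaged 500, which shows the scaling they had received. Arrays carry no count depth, and their number limits the precision.

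Names came from the platform annotation, updated through gene identifiers for 20364 probe sets; 20393 had 1 symbol, 691 had several and were not used, and 1606 were not listed. Values were used as deposited, as log2(signal + 27.3). A gene was represented by its brightest probe set and compared where the highest of its 4 signals reached 168 (log2 7.61), which left 8283 genes. No test was possible with 1 array per group. The steps were checked on simulated data. The members and lists were chosen with earlier results of these data known; named list genes are up to 3 per list past 2-fold with the largest difference. Alternatives changed the offset, scaling, floor or probe set. Python 3.11.15, pandas 2.3.3, numpy 2.4.6 and, for cyclic loess, limma 3.58.1 were used.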

Additional observations from a re-analysis of the deposited data

Results flagged for a closer look

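For 7 of the 10 markers the knockout minus wild-type difference had opposite signs in tumor and gland, which was so for 49.0% of all genes, and with 1 array per group the difference between tissues was not tested. The log2 difference in the tumor minus that in the gland was 1.29 for Aldh1a3 by its brightest probe set (0.76 in the tumor and -0.53 in the gland), 0.65 for Cd24a, 0.59 for Sox9, 0.42 for Bmi1 and 0.27 for Prom1. It was -0.81 for Cd44 (-0.02 in the tumor and 0.78 in the gland) and -0.66 for Aldh1a1 (-0.60 in the tumor and 0.07 in the gland). The value of Aldh1a3 rests on 1 probe set, since the second gave 0.72, the third was near 0 and the mean of all 3 gave 0.67.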

How the results depend on the processing

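The 9 alternatives were offsets of 1 and of the median of all values, a common median, quantile normalization, cyclic loess, no floor, a floor on the mean, the mean of all probe sets, and leaving out shared probe sets, which removed Procr. The count of markers past 2-fold between the tumors was 0 in place of 1 with the median as offset, with a common median, with quantile normalization and with the mean of all probe sets, where Id4 was 0.93, 0.99, 0.98 and 0.68. In the glands the count was 0 throughout. It stayed at 6 in wild type and at 7 or 8 in the knockout for tumor against gland. Of 356 single values, 341 kept their sign and their side of 2-fold, and no value past 2-fold changed sign. Part of this was fixed in advance. Changing the floor or leaving out shared probe sets could not move the value of any marker still compared. The mean of all probe sets could not move the 4 markers with 1 probe set. The common median moved the median of all genes to -0.21 between the glands and to 0.31 for the knockout tumor against its gland, and turned the gland differences of Cd34 to -0.11 and of Aldh1a1 to -0.16. The mean of all probe sets gave 0.01 for Aldh1a3 between the glands, 0.01 for Cd44 between the tumors and -0.04 for Cd24a in wild-type tumor against gland, each of the opposite sign to the value reported. Over all genes, the median as offset left 62 higher and 77 lower between the tumors and 20 and 16 between the glands. The floor touches Sox9, whose gland signals lie below it. No paired analysis was possible because each group is 1 array. The causes were not tested.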

Other observations

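The genes of this paragraph were named after their values were seen. Crabp1, which binds retinoic acid in the cytoplasm, had signals of 72.9 in the knockout tumor and 507 in the wild-type tumor, against 40.6 in the knockout gland and 35.2 in the wild-type gland. It was thus high on the wild-type tumor array, where the summed signal of 9 keratinising markers was also high, at 1503 in the knockout tumor and 7626 in the wild-type tumor, against 803 in the knockout gland and 493 in the wild-type gland. A link between them was not tested. Cyp26a1, an enzyme that breaks down retinoic acid, had 285 and 232 in the knockout and wild-type tumors, against 20.3 and 3.9 in the glands. Elf5, a factor of luminal progenitors, had 3283 and 2325 in the knockout and wild-type tumors, against 693 and 609 in the glands. Tspan8, a tetraspanin, had 4071 and 3620.0 in the knockout and wild-type tumors, against 449 and 475 in the glands. Klf4 had 567 and 658 in the knockout and wild-type tumors, against 1957 and 1722 in the glands.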
